A study of Homo sapiens with 3 samples.

Results

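The 8 genes described here are caspases and the proteins that hold them in check: CASP2, CASP9, CASP6, CASP4, XIAP, BIRC2, BIRC3 and DIABLO. Every probe that was not a control and whose RefSeq accession belongs to one of these genes was taken, which gave 11 probes of the 58201 probes on the array, or 8 of the 22439 genes that could be named. CASP2, XIAP and DIABLO had 2 probes each and the other genes had 1. The signals come from single-colour Agilent arrays hybridised with RNA of TK-10, an established line of human renal carcinoma cells. Each condition was measured on 1 array, without replicates.

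The vehicle cells had received 0.1% DMSO. The second array was of cells labelled as treated with cordyceps at 750 μg/ml, whereas the methods of the study name cordycepin, the adenosine analogue of Cordyceps fungi, at another dose, so the array is called the cordyceps array here and the agent is not settled. The cells of the third array had received sunitinib, which inhibits receptor tyrosine kinases, at 10 μM. RNA of all 3 was taken at 48 h, and the labels give the same medium for all, with zinc sulfate at 16.7 μM, troglitazone at 10 μM, nicotinamide at 10 mM and fetal bovine serum at 10%. Both treated arrays are compared with the same vehicle array, so the 2 comparisons over vehicle are not independent.

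Caspases are cysteine proteases that are made as inactive precursors. Initiator caspases are activated on large adaptor complexes and in turn cleave the executioner caspases, which cut many cellular proteins during apoptosis, while inflammatory caspases respond to bacterial products and cleave gasdermin D. The inhibitors of apoptosis carry BIR domains: XIAP binds and blocks active caspases, whereas the cellular inhibitors encoded by BIRC2 and BIRC3 are ubiquitin ligases of the tumour necrosis factor receptor complex that restrain caspase-8 and the non-canonical NF-κB pathway. DIABLO, also called Smac, leaves the mitochondria during apoptosis and displaces the inhibitors from caspases. BIRC3 is a well known target gene of NF-κB, and BIRC2 lies beside it on chromosome 11.

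The promoter of BIRC3 is shown because BIRC3 was the member that differed most between the arrays, and that of its neighbour BIRC2 because the pair encode closely related proteins. The sequences are the 250 bases before a transcription start in RefSeq on GRCh38.p14, on the plus strand, which are chr11:102317234-102317483 for BIRC3 and chr11:102346964-102347213 for the first of 2 BIRC2 starts. Capitals mark matches to the κB consensus, the 10-base motif bound by NF-κB, searched on both strands.
BIRC3: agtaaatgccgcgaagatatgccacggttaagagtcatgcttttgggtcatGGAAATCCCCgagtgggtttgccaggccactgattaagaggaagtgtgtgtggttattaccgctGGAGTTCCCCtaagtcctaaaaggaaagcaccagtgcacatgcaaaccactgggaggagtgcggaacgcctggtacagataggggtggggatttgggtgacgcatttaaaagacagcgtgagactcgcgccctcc
BIRC2: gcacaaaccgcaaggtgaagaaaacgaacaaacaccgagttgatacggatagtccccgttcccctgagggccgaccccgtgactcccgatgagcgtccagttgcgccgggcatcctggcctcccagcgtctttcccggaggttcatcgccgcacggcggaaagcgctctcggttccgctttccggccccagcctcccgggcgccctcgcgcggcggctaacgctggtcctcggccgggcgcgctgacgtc
The BIRC3 window held 2 matches, both read on the minus strand, from 199 to 190 and from 135 to 126 bases before the start. All 8 genes had a window in the table, 16 in all, and the BIRC3 window was the 1 with a match. Of all 35116 windows of this length, 5.21% held at least 1 match and 1.133% held 2 or more. A match is a description of letters and no measurement of binding.

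All 11 probes were printed once on each array, were well above background on all 3 and were not saturated. Signals are given as Feature Extraction's processed signal, and log2 values are relative to the 75th percentile of each array, which was 165 on the vehicle array, 138 on the cordyceps array and 78.2 on the sunitinib array. A ratio of 2 arrays carries the combined error that the software reports for both signals, and the 95% limit drawn from it under a normal distribution was 0.40 to 0.50 on the log2 scale. The limit covers the error of the spots and not the spread between cultures, which 1 array per condition cannot give. The median SD between the 10 spots of replicated probes was 0.0493 to 0.0583 on the log2 scale.

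**Figure D1:**
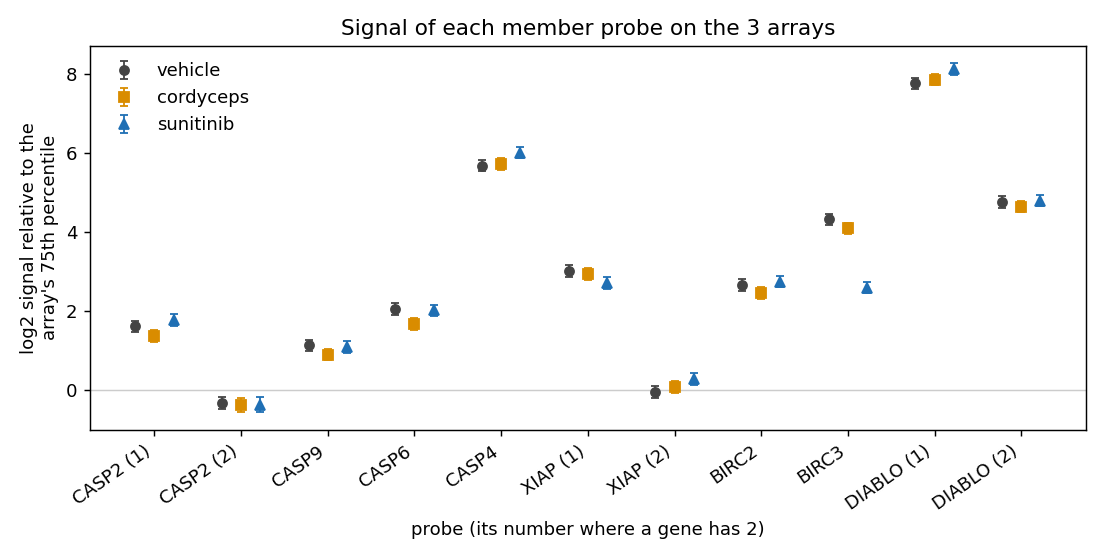
Log2 processed signal of the 11 probes relative to the 75th percentile of the array (y axis), for the vehicle, cordyceps and sunitinib arrays. Bars are the error reported by Feature Extraction for the spot. The sunitinib array lies apart from the other arrays for BIRC3, at 2.58 against 4.32 and 4.09. Heights of different probes are not comparable.

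CASP2 and CASP9 are initiator caspases, activated on the PIDDosome and on the apoptosome respectively. CASP9 had signals of 359, 256 and 165 on the vehicle, cordyceps and sunitinib arrays, or 1.13, 0.89 and 1.08 relative to the 75th percentile. The log2 ratio over vehicle was -0.24 with cordyceps and -0.05 with sunitinib, both within the 95% limit. The brighter CASP2 probe had signals of 501, 354 and 266 in the same order, and its log2 ratios over vehicle were -0.25 and 0.16. The dimmer CASP2 probe, of the same accession NM_032982, had signals of 129, 105 and 60.1 and log2 ratios of -0.05 and -0.03. Neither probe of CASP2 exceeded the limit in any of the 3 comparisons, although the brighter probe came close in sunitinib over cordyceps, with 0.406 against a limit of 0.407.

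CASP6 is an executioner caspase that cleaves lamins. Its signals were 677, 438 and 315, or 2.04, 1.67 and 2.01 relative to the 75th percentile, so the cordyceps array was the low one on this scale. The log2 ratio of cordyceps over vehicle was -0.37 against a limit of 0.403, the lowest value of the 11 probes in that comparison. With sunitinib it was -0.03. With median scaling the CASP6 ratios over vehicle were -0.15 with cordyceps and -0.36 with sunitinib, so which array was lowest depended on the scaling. CASP4 is an inflammatory caspase that senses bacterial lipopolysaccharide inside the cell. It had signals of 8445, 7302 and 5043, or 5.68, 5.73 and 6.01 relative to the 75th percentile. The log2 ratio over vehicle was 0.05 with cordyceps and 0.33 with sunitinib, again within the limit.

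XIAP was measured by 2 probes of the accession NM_001167. The brighter probe had signals of 1325, 1053 and 511, or 3.01, 2.93 and 2.71 relative to the 75th percentile, with the sunitinib array lowest. The dimmer probe had signals of 157, 144 and 94.5, or -0.07, 0.07 and 0.27, with the sunitinib array highest. In sunitinib over vehicle the log2 ratios were -0.30 and 0.34, each within its own limit, but they differed from each other by -0.64 (95% limits -1.23 to -0.05), so these data give no single direction for XIAP under sunitinib. This was the 1 of 9 differences between probes of 1 member gene that exceeded its limit. Over the whole array, 17.3% of 2266 probe pairs of 1 accession differed by more than the limit in that comparison. In cordyceps over vehicle the 2 probes gave -0.08 and 0.13.

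BIRC3, which encodes the cellular inhibitor also called cIAP2, had signals of 3285, 2350 and 469 on the vehicle, cordyceps and sunitinib arrays. Relative to the 75th percentile these were 4.32, 4.09 and 2.58, so the sunitinib array was far below both others. BIRC3 was 3.33-fold lower in sunitinib than in vehicle (log2 ratio -1.73, limit 0.401) and 2.84-fold lower in sunitinib than in cordyceps (log2 ratio -1.51). In cordyceps over vehicle its log2 ratio was -0.23, within the limit. Of the 27147 probes compared in sunitinib over vehicle, 397 (1.46%) had a lower log2 ratio than BIRC3.

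BIRC2, which encodes the related inhibitor cIAP1, had signals of 1035, 755 and 523, or 2.65, 2.45 and 2.74 relative to the 75th percentile. Its log2 ratio over vehicle was -0.20 with cordyceps and 0.09 with sunitinib. In sunitinib over vehicle, the log2 ratio of BIRC3 minus that of BIRC2 was -1.82 (95% limits -2.39 to -1.26), a 3.54-fold difference that does not change when an array is multiplied by a single factor. In cordyceps over vehicle the same difference was -0.03. Against each of the other 10 member probes, the BIRC3 ratio in sunitinib over vehicle was lower by more than the limit, with differences from -1.43 for the brighter XIAP probe to -2.10 for the brighter DIABLO probe. BIRC3 was picked as the most extreme member on these same arrays. All 10 differences use its single ratio, so they describe that ratio and are not separate results.

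The genes that flank the pair in the order of RefSeq were also read. YAP1, next to BIRC3, had log2 ratios over vehicle of -0.10 with cordyceps and -0.05 with sunitinib, and TMEM123, next to BIRC2, had 0.06 and 0.09. MMP7, which lies beyond TMEM123, had signals of 761, 202 and 16.0. It was 3.15-fold lower on the cordyceps array than on the vehicle array (log2 ratio -1.66). On the sunitinib array MMP7 was not well above background, and it was at least 19.7-fold lower there than on the vehicle array.

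DIABLO had the brightest probe of its 2 on NM_001278302, with signals of 36027, 32263 and 22005, or 7.77, 7.87 and 8.14 relative to the 75th percentile. Its log2 ratios over vehicle were 0.10 with cordyceps and 0.36 with sunitinib. The other probe, on NM_019887, had signals of 4480, 3456 and 2167 and log2 ratios of -0.12 and 0.03. The 2 probes differed by less than their limit in all 3 comparisons, and neither exceeded the limit of its own error.

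Counted over all members, cordyceps over vehicle gave 3 probes above and 8 below 0, with log2 ratios from -0.37 to 0.13 and a median of -0.12, against a median of 0.00 over the 21600 probes well above background on both arrays. None of the 11 probes passed 2-fold in either direction, a background of 3.6% of probes higher and 2.49% lower, and none exceeded the 95% limit, which 14.5% of probes did upward and 13.2% downward. The 2-fold shares here are over probes well above background on at least 1 array, and the 95% limit shares over those on both. Among probes on both, 2.7% were more than 2-fold higher and 2.12% lower. These shares were 7.13% and 5.25% in sunitinib over vehicle, and 7.31% and 7.48% in sunitinib over cordyceps. In sunitinib over vehicle, 6 probes were above and 5 below 0. BIRC3 was the 1 member more than 2-fold lower, and none was more than 2-fold higher, against 5.67% of all probes lower and 8.08% higher. BIRC3 was also the 1 member beyond the 95% limit, which 20% of probes passed downward and 25.8% upward. The other 10 probes lay between -0.30 and 0.36. The median over the members was 0.03, against 0.05 over the 21623 probes well above background on both arrays. In sunitinib over cordyceps, 9 probes were above and 2 below 0, BIRC3 was again the 1 member more than 2-fold lower (8.99% of all probes lower, 8.96% higher), and the other 10 lay between -0.22 and 0.41. The 95% limit was passed downward by BIRC3 alone among the members, and by 22.4% of probes downward and 27% upward. A count of 1 in 11 past 2-fold is close to the background shares past 2-fold and is a result about BIRC3, not about the members together. The counts past the 95% limit, 0 or 1 of 11, were below the background shares past that limit. Whether the members as a set differed from other probes was not tested.

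**Figure D2:**
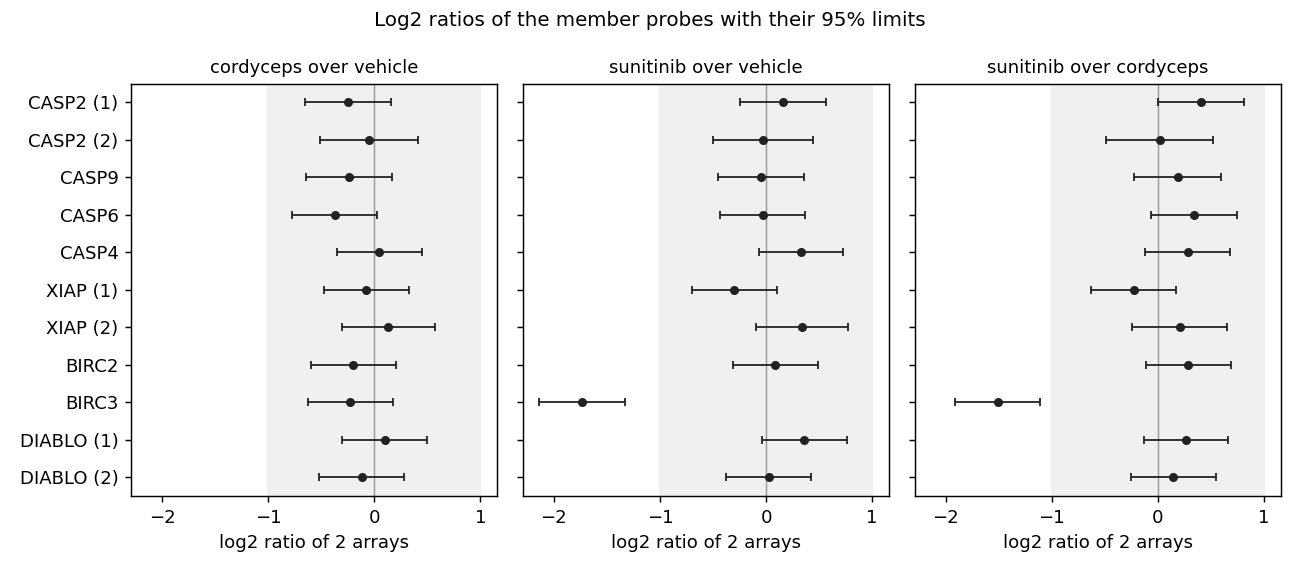
Log2 ratios of the 11 member probes in the 3 comparisons (x axis). Points are the ratio of 2 arrays, bars its 95% limit from the software's spot errors, and grey marks ratios within 2-fold. BIRC3 lies outside the grey area in sunitinib over vehicle (-1.73) and in sunitinib over cordyceps (-1.51), and all other bars cross 0.

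The signs of the small ratios depended on how the arrays were scaled. Scaling to the median in place of the 75th percentile moved every log2 ratio by 0.22 in cordyceps over vehicle and by -0.33 in sunitinib over vehicle, and left 7 members above and 4 below 0 in the former and 2 above and 9 below in the latter. Without scaling, all 11 were below 0 in both. In sunitinib over cordyceps, all 11 were below 0 with median scaling and without scaling, and normexp left 4 above and 7 below. BIRC3 in sunitinib over vehicle ran from -1.73 to -2.81 over all settings, and the next lowest member from -0.29 to -1.37. Its distance to the median of the other 10 probes was -1.79 under every linear scaling, -1.77 after quantile normalization and -1.81 after normexp background correction.

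**Figure D3:**
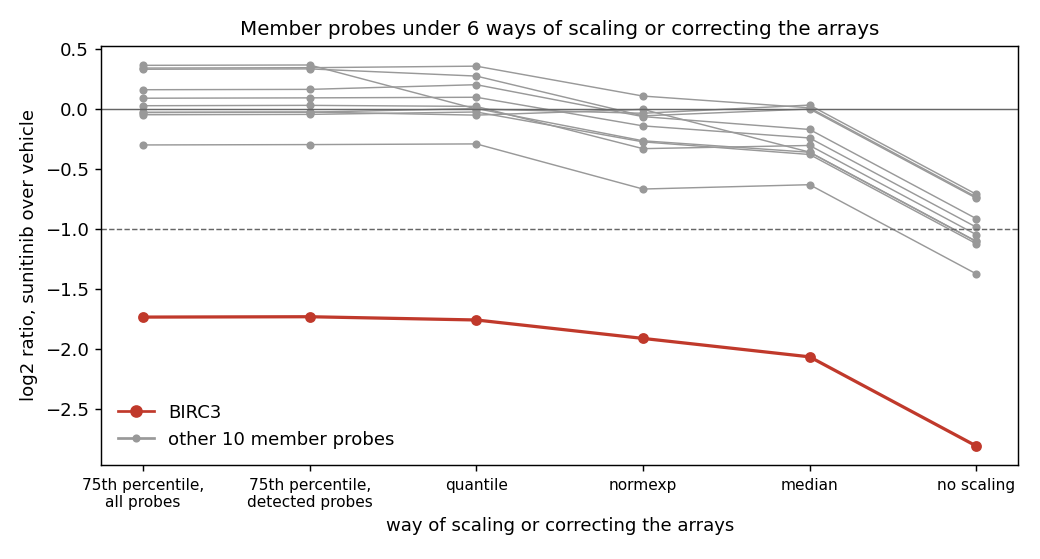
Log2 ratio of sunitinib over vehicle (y axis) for BIRC3 and the other 10 member probes under 6 ways of scaling or correcting the arrays (x axis). Each line is 1 probe and the dashed line marks 2-fold lower. BIRC3 stays between -1.73 and -2.81 and lies below every other member under each of them.

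Probes over the whole array shifted likewise. The shares more than 2-fold higher and lower were 4.68% and 11.8% in sunitinib over vehicle with median scaling, 2.85% and 4.13% with normexp, and 1.55% and 48.9% without scaling. They were 5.47% and 1.38% in cordyceps over vehicle with median scaling and 2.48% and 5.37% without scaling, and 2.59% and 23.7% in sunitinib over cordyceps with median scaling, 2.61% and 6.37% with normexp, and 1.58% and 36% without scaling. On the arrays, 37.8% to 45.5% of probes were well above background. A bright streak of 581 spots on the cordyceps array held no member probe. The 3 arrays were assumed to share 1 slide and 1 scan, as in earlier work on these data. The results given here do not show this, and a batch effect was not tested. Of 8 markers of renal tubule and renal carcinoma, 7 had a probe and all 7 were well above background on every array. Among markers of other cell types, 2 of 3 endothelial, 2 of 3 fibroblast and 1 of 2 hepatocyte genes were well above background on each array. The listed signal of VWF, an endothelial gene counted here, was 14.9 on the sunitinib array, below 18.3, the lowest signal well above background there. Of 3 leukocyte genes, 2 had a probe, and 1 was well above background on the vehicle array, 0 on the cordyceps array and 1 on the sunitinib array. PECAM1, COL3A1, CD3E and ALB were not well above background on any array. The summed fibroblast signal, led by COL1A1 and DCN, was 5.19, 3.19 and 2.43 relative to the 75th percentile on the 3 arrays, and its part in the BIRC3 result was not tested.

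Around the members, 53 genes of 6 pathway lists were read at 1 probe per gene, the brightest. Of these, 50 had a probe and 44 could be compared. In cordyceps over vehicle, 1 gene was more than 2-fold higher and none lower (2.99% and 2.76% of all genes), and the median log2 ratio was -0.05 against 0.01 over all genes, each median leaving out genes at background on either array. In sunitinib over vehicle, none was higher and 2 were lower (6.5% and 6.53% of all genes), with a median of -0.17 against 0.00. In sunitinib over cordyceps, 1 was higher and 5 were lower (7.64% and 9.52% of all genes). Ratios of these genes shift with the scaling. In sunitinib over cordyceps the shift was -0.55 with median scaling and -0.82 without scaling. It was -0.33 and -1.07 in sunitinib over vehicle, and 0.22 and -0.26 in cordyceps over vehicle. A ratio smaller than the shift and opposite to it in sign can change sign, also where it is not near 0.

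Among the other BIR domain proteins, 3 of 5 were compared. BIRC5, or survivin, a subunit of the chromosomal passenger complex needed for cell division, had signals of 2776, 3215 and 184 on the vehicle, cordyceps and sunitinib arrays. It was 7.16-fold lower in sunitinib than in vehicle (log2 ratio -2.84, limit 0.129) and 9.91-fold lower than in cordyceps. The log2 ratio in cordyceps over vehicle was 0.47. Replicate spots of this BIRC5 probe were averaged and their errors taken as independent, so its limit is narrower than those of the members. It does not cover the spread between cultures either. NAIP, a sensor of bacterial flagellin, had -0.49 with cordyceps and -0.19 with sunitinib. The other caspases held 6 compared genes of 8. None passed 2-fold in any of the 3 comparisons. CASP5, an inflammatory caspase, was highest with sunitinib over vehicle at 0.34, with signals of 2237, 1870 and 1348. The highest in sunitinib over cordyceps was CASP10 at 0.43, a gene of the death receptor pathway whose probes disagreed in sign.

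Of the apoptosome and mitochondrial factors, 6 of 7 were compared. CYCS, cytochrome c, had signals of 963, 1155 and 233 and log2 ratios of 0.52 with cordyceps and -0.97 with sunitinib over vehicle, and was 2.81-fold lower in sunitinib than in cordyceps. Its probes disagreed, from -0.72 to 0.53 in cordyceps over vehicle and from -1.49 to -0.37 in sunitinib over cordyceps, so not every probe passed 2-fold there. SEPTIN4, whose ARTS isoform antagonises XIAP, had signals of 140, 72.0 and 95.2, with -0.71 and 0.52 over vehicle, and was 2.33-fold higher in sunitinib than in cordyceps, a call lost with median scaling, without scaling and with normexp. Without scaling its ratio over vehicle with sunitinib was -0.56. Of the adaptors and CARD proteins, 8 of 12 were compared, and none passed 2-fold. NLRP1, an inflammasome sensor, was lowest at -0.43 with cordyceps, within its limit of 0.49, and -0.56 with sunitinib. Its probes ran from -0.43 to -0.11 and from -0.56 to -0.09 respectively. CRADD, the adaptor of CASP2 in the PIDDosome, was highest at 0.40 and 0.85, the last falling below 0 without scaling, at -0.22. CASP8AP2 at -0.20 and PYCARD at 0.50 were lowest and highest in sunitinib over cordyceps, where the CASP8AP2 probes ran from -0.75 to -0.20.

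All 10 tumour necrosis factor receptor and non-canonical NF-κB partners of the cellular inhibitors were compared, and none passed 2-fold over vehicle. RIPK1, the kinase ubiquitinated by BIRC2 and BIRC3, had signals of 1173, 555 and 540 and was lowest with cordyceps at -0.83. TRAF1, which joins TRAF2 in complexes with BIRC2 and BIRC3, had signals of 190, 305 and 55.4, was highest with cordyceps at 0.93, and was 3.12-fold lower in sunitinib than in cordyceps. With sunitinib over vehicle the partners ran from -0.91 for TRAF6, a ubiquitin ligase, to 0.19 for RELB, the non-canonical NF-κB subunit, with a median of -0.29.

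All 11 caspase substrates were compared. LMNB1, lamin B1, had signals of 80.5, 137 and 4.73, was 2.03-fold higher with cordyceps than with vehicle (a log2 ratio of 1.02, which was 0.76 without scaling and 0.63 with normexp), was not well above background on the sunitinib array, and was at least 2.08-fold lower there than in vehicle and at least 4.23-fold lower than in cordyceps, both calls being lost with normexp, at -0.11 and -0.74. PARP1, a DNA damage sensor, was 2.07-fold lower in sunitinib than in cordyceps, with its probes from -1.05 to -0.10, and the call was lost with quantile normalization, at -0.93. GSDMD, gasdermin D, was lowest with cordyceps at -0.55 and highest in sunitinib over cordyceps at 0.77. With sunitinib over vehicle, BID, which carries the signal of caspase-8 to mitochondria, was at -0.93, with its probes from -1.02 to -0.93. DFFB, the caspase-activated DNase, was at 0.60, within its limit of 0.74, with dim signals of 30.8, 38.9 and 22.1. The other DFFB probe was at background on the sunitinib array and gave a bound set to 0.00, which is not a measured ratio. Without scaling the ratio of the brighter probe was -0.48.

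**Figure D4:**
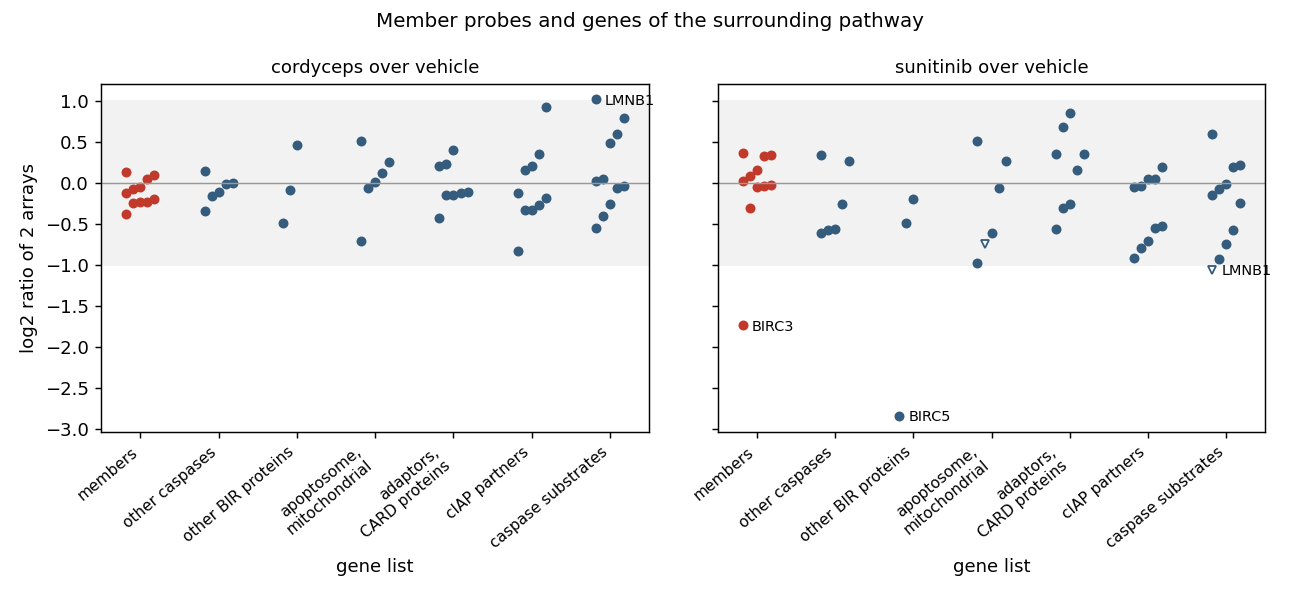
Log2 ratios (y axis) of the 11 member probes and of the compared genes of 6 pathway lists (x axis), in cordyceps over vehicle and sunitinib over vehicle. Each point is 1 probe, open triangles are bounds from a gene not well above background on 1 array, and grey marks ratios within 2-fold. BIRC3 (-1.73) and BIRC5 (-2.84) lie lowest in sunitinib over vehicle. Ratios within 2-fold can change sign with the scaling.

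The named genes whose pattern over the 3 arrays was most like that of BIRC3 were TSPAN13, CTSV and SLC17A9, at distances of 0.037, 0.041 and 0.050 in the plane of both log2 ratios over vehicle. In all, 11 of 12462 genes lay within 0.2. The 3 distances are smaller than the combined error of a BIRC3 ratio over vehicle, 0.20, so the order of these genes is not resolved. On the sunitinib array TSPAN13 and SLC17A9 had dim signals of 24.2 and 28.7, where the lowest signal well above background was 18.3.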

How the data were processed

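RNA of TK-10 cells was measured on 3 single-colour arrays. The authors deposited Feature Extraction 11.5.1.1 output, whose unit is intensity (the processed signal, background-subtracted, with its error), on an array design of build hg19, and a table of processed intensity values, of which 99.87% to 99.92% on each array equalled the mean spot intensity to within 0.01%. The study's methods describe a 2-colour array and a test for replicates, neither of which applies to these files. Their 2-fold limit was used. Control spots and outlier spots were left out, replicate spots were averaged, and each signal was divided by the 75th percentile of its array before taking log2. Probes were named by accession through RefSeq (GRCh38.p14), which named 31104 of 58201. A probe was compared where it was well above background on at least 1 array. If the dimmer side was at background, a bound was computed from the lowest detected signal of that array, or from the probe's own signal where higher. A bound that would have put the side at background above the detected side was set to 0. Genes of the lists are named if past 2-fold or, otherwise, if highest or lowest of their list, and for BIRC3 the 3 nearest genes are named. Some genes that this rule names are not reported here. The members and lists were chosen with earlier results of these data known. The software was limma 3.58.1 (normexp, offset 50) in R 4.3.3, and pandas 2.3.3 with numpy 2.4.6 in Python 3.11.15. Calculations were tested on simulated data. Alternatives changed the scaling, background correction, dim-probe filter, outlier spots, probe choice and fold limit. The number of arrays limits the precision.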

Additional observations from a re-analysis of the deposited data

How the results depend on the processing

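The counts of member probes past 2-fold were the same under 10 of 11 alternatives in each comparison in which a member passed, and under all 11 in cordyceps over vehicle. The exception was the authors' table without scaling, with 6 member probes lower in sunitinib over vehicle and 2 in sunitinib over cordyceps. The list counts moved more. In cordyceps over vehicle, 3 list genes were higher with median scaling, 0 with normexp and 0 without scaling, where 1 was lower. In sunitinib over vehicle, 9 were lower with median scaling, 31 without scaling, 4 with normexp and 1 when both arrays had to be well above background. In sunitinib over cordyceps, none (0) was higher with median scaling, without scaling or with normexp, and 14 were lower with median scaling and 21 without scaling. The scaling shifts follow from the construction of these settings. The cause of the normexp changes was not tested. Leaving out the bright streak of the cordyceps array was chosen after seeing the data. Probes named by gene name alone were not run, since the columns used hold accessions only. No paired analysis was possible because each condition had 1 array.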
